A study of Arabidopsis thaliana with 27 samples.

Results

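The genes that make ribosomes were followed across 3 Arabidopsis thaliana genotypes and 3 temperatures. Members were the rows of the deposited gene table whose Gene Ontology annotation lists rRNA processing or ribosome biogenesis and does not list cytoplasmic translation. The rule found 256 of the 33039 genes in the table, and 231 of them reached 1 TPM in at least 3 libraries and were tested among 21396 genes. Of these 231 members, 131 carry the rRNA processing term alone, 52 the ribosome biogenesis term alone and 48 both. Of the 25 left out for low values, 11 were at 0 in every library. Just inside this limit lie AT2G48121, with 3 libraries at 1 TPM or more and a mean of 0.306 TPM, and AT3G06520, with 6 libraries and 0.778 TPM. Just outside lie AT4G31520, with 2 libraries and 0.479 TPM, AT3G27970, with 1 library and 0.364 TPM, and eIF6B, with 0 libraries and 0.342 TPM.

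Messenger RNA of whole seedlings was measured in 27 libraries, 3 for each of 9 groups. Plants of 3 genotypes were used at 16, 22 and 29 °C: Columbia wild type, a line called S364P (ELF3-16 in the protocol) whose EARLY FLOWERING 3 (ELF3) protein has proline in place of serine 364, and ELF3-101, in which a T-DNA is inserted in the same gene. The ELF3 protein holds together the evening complex, which represses growth genes according to clock phase and temperature. The study's question was whether that residue, a possible phosphorylation site, bears on flowering time and hypocotyl length. The protocol lists Zeitgeber times of 8, 16 and 24 h beside the 3 temperatures in the same order, so temperature and time of day cannot be told apart in a comparison of temperatures, whereas genotypes compared at 1 temperature share both. No label says that the 3 libraries of a group came from separate plantings. The p-values rest only on how far libraries within a group differ, pooled over the 9 groups, and that spread may be technical. In RNA of whole seedlings, fewer cells of a type and less RNA per cell cannot be told apart.

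Ribosomes are assembled mainly in the nucleolus. RNA polymerase I makes a long precursor rRNA, small nucleolar RNPs modify it at many sites (box C/D particles add methyl groups through fibrillarin, box H/ACA particles make pseudouridine through NAP57), the U3 processome cuts out the small-subunit rRNA, and a separate set of factors matures the large subunit before both are exported. Plastids and mitochondria hold ribosomes of a bacterial kind, whose rRNA is processed by nuclear-encoded factors of their own. By their annotated components and processes, 123 members are nucleolar, 49 act on the small subunit, 35 on the large subunit, 9 belong to box C/D and 4 to box H/ACA particles, 8 to the exosome, 33 to plastids and 8 to mitochondria; 14 are structural ribosomal proteins and 54 fall in none of these classes, which overlap. Member levels, averaged over all libraries, ran from 0.306 to 734 TPM with a median of 23.8 TPM.

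The promoters of 6 members are shown because their transcripts behaved differently within the same pathway: SNU13 and FIB2, subunits of box C/D particles that were lower at 22 than at 16 °C; FIB1, the close paralog of FIB2, which was not; the large-subunit factor REIL1 and its paralog REIL2, which had different temperature courses; and RBF1, a plastid factor that was low in both mutant lines. Each sequence is the 250 bases before the annotated gene start in the TAIR10.1 RefSeq genome, 5′ to 3′ on the gene's strand. Capitals mark matches, on either strand, to the telo-box AAACCCTA, the site II elements TGGGCC and TGGGCT, the evening element AAAATATCT or the G-box CACGTG.
SNU13: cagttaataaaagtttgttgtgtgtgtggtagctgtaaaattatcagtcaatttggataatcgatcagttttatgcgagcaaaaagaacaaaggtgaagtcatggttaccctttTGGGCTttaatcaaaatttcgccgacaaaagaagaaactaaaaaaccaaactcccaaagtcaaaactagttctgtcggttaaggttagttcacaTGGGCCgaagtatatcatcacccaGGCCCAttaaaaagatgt
FIB2: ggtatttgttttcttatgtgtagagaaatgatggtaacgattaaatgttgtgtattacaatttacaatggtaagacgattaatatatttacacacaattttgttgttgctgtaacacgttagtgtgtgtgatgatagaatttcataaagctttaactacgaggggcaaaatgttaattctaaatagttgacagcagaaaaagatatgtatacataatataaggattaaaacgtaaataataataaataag
FIB1: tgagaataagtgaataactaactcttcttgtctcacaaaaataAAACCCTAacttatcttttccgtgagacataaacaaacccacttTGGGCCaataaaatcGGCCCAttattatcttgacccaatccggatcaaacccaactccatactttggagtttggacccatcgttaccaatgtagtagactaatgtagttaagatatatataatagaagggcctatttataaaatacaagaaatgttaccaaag
REIL1: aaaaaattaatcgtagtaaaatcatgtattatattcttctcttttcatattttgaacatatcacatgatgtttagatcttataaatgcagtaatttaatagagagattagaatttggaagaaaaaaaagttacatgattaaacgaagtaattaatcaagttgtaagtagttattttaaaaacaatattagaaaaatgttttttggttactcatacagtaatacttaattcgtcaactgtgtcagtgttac
REIL2: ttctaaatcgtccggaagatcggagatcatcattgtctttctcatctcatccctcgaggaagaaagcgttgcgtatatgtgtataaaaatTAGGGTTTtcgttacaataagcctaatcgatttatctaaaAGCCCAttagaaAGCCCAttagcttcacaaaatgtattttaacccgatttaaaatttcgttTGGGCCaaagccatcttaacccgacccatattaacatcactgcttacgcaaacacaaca
RBF1: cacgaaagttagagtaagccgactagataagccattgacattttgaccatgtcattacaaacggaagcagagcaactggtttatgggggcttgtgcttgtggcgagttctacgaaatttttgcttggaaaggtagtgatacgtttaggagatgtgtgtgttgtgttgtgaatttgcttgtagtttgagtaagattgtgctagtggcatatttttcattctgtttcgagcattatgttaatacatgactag
The SNU13 window (AT5G20160, chr5:6805227-6805476, minus strand) holds TGGGCT 136 bases and TGGGCC 42 and 18 bases before the gene, the last on the reverse strand. The FIB1 window (AT5G52470, chr5:21293897-21294146, plus strand) holds AAACCCTA at 207 bases and TGGGCC at 163 and 148 bases. The REIL2 window (AT2G24500, chr2:10402935-10403184, minus strand) holds AAACCCTA at 160 bases, TGGGCT at 120 and 108 bases and TGGGCC at 59 bases. None of these 5 strings occurs in the windows of FIB2 (AT4G25630, chr4:13073840-13074089, plus strand), REIL1 (AT4G31420, chr4:15248059-15248308, minus strand) or RBF1 (AT4G34730, chr4:16573956-16574205, minus strand).

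Site II elements and the telo-box are known from promoters of plant ribosomal protein genes. Over the 229 members with a window, TGGGCC occurred in 31.9% against 16.4% of 19893 tested genes, TGGGCT in 27.1% against 14.0% and AAACCCTA in 8.73% against 3.52%. Among the 123 nucleolar members the shares were 45.5%, 33.3% and 11.4%. Among 32 plastid members they were 21.9%, 21.9% and 3.12%. AAAATATCT occurred in 1.31% of members against 2.45% of all windows and CACGTG in 7.42% against 7.32%. These shares describe letters in the windows, with no test, and a match is not a site of binding.

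Each library had 23430 to 23854 genes above 0, and TPM keeps no sequencing depth, so depth is unknown. The ELF3 transcript ran from 18.1 to 41.6 TPM in wild-type libraries, 29.5 to 72.0 in S364P and 30.5 to 41.9 in the insertion line; a transcript level checks neither a changed residue nor an insertion. Summed over the 9 green leaf markers, the tissue check gave 31900 to 55820 TPM in libraries of wild type and in all libraries at 16 °C, and no leaf, root or dividing-cell marker was at 0 throughout a group. TPM is a share of a fixed total: the median gene was 0.12, 0.22 and 0.19 log2 units higher at 29 than at 22 °C in wild type, S364P and the insertion line. Median-of-ratios scaling, which centres the median gene, is therefore given beside the counts it moves. Differences below are on the log2(TPM + 1) scale with their standard error (SE), from limma with Benjamini-Hochberg adjustment over all tested genes. A gene was called, and is said to have risen or fallen, at an adjusted p under 0.05.

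**Figure D1:**
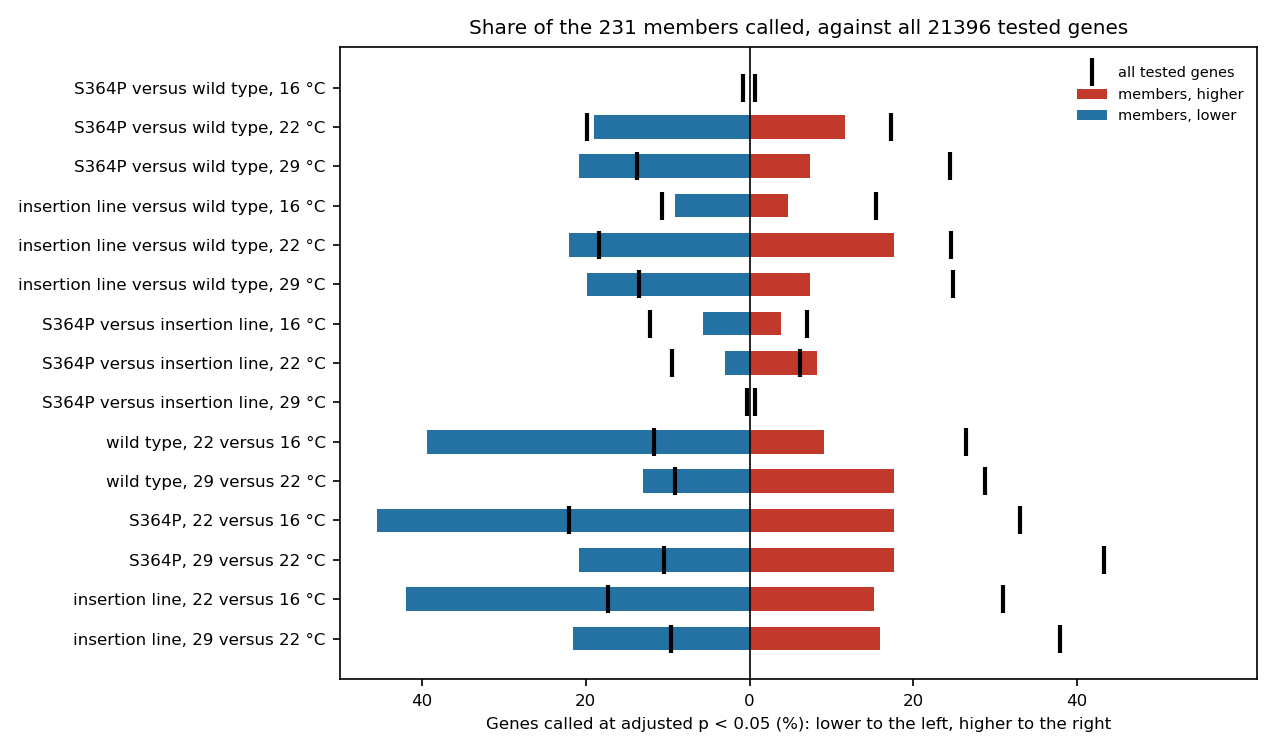
Share of the 231 members called lower (bars to the left) and higher (bars to the right) in each comparison of 2 groups, in percent, with black ticks for the share of all 21396 tested genes called in that direction. At 22 against 16 °C the lower bars reach 39.4% to 45.5%, past the ticks at 11.7% to 22.1%.

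The nuclear and nucleolar machinery was lower at 22 than at 16 °C in all genotypes. In wild type 91 members fell (39.4%, against 11.7% of all genes) and 21 rose (against 26.5% of all genes). In S364P 105 fell (45.5%, against 22.1%) and 41 rose (against 33.1%, with 55.2% of all genes called in either direction), and in the insertion line 97 fell (42.0%, against 17.3%) and 35 rose (against 31.0%). The member median was −0.17, −0.18 and −0.19, beside medians of 0.09, 0.07 and 0.07 over all genes. With median-of-ratios scaling 133, 133 and 132 members were lower (against 18.5%, 29.3% and 24.5% of all genes). With it 15, 31 and 24 were higher (against 19%, 27.6% and 25.1%). The 3 contrasts share no library. The same 68 members were lower in all of them, which is 74.7% of the wild-type, 64.8% of the S364P and 70.1% of the insertion-line list, and 51 of these are nucleolar, 24 small-subunit, 12 large-subunit, 6 box C/D and 8 plastid. Under median-of-ratios scaling 105 members were lower in all 3 genotypes and all 68 were among them.

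By role, the fall covered 67 of 123 nucleolar members in wild type, 70 in S364P and 60 in the insertion line. Leaving out 1 library gave 50 to 61, 60 to 68 and 38 to 68, the 38 without replicate 3 of the insertion line at 22 °C. Of the 49 small-subunit members 28, 29 and 28 fell and 2, 6 and 7 rose. Of the 35 large-subunit members 20, 19 and 15 fell and 1, 5 and 4 rose. Of the 9 box C/D members 6, 7 and 7 fell and 0, 2 and 1 rose, with medians of −0.53, −0.79 and −0.51. Of the 4 box H/ACA members 3, 2 and 2 fell and 0, 0 and 1 rose. Of the 14 structural ribosomal proteins 9, 7 and 7 fell and 0, 1 and 2 rose. Of the 8 exosome members 2, 2 and 1 fell and 0, 1 and 2 rose. The 54 members in no class split 8 up to 5 down in wild type.

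By class median, the box C/D particle showed the widest step of these classes. FIB2, a fibrillarin that methylates rRNA, was at 175.2, 184.9 and 175.8 TPM in wild type at 16 °C and at 71.3, 83.9 and 71.8 TPM at 22 °C. In S364P it went from 175, 157 and 155 to 48.3, 53.6 and 54.3 TPM, and in the insertion line from 143, 123 and 160.2 to 58.4, 66.2 and 47.1 TPM. In each genotype every library at 16 °C lay above every library at 22 °C. FIB2 fell by 1.23 ± 0.136 log2 units (adjusted p = 3.19e-07) in wild type, by 1.62 (adjusted p = 1.55e-09) in S364P and by 1.30 (adjusted p = 6.23e-08) in the insertion line. From 22 to 29 °C it fell further in wild type, by 0.51 (adjusted p = 0.0047), to 51.8, 61.1 and 45.8 TPM.

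FIB1, the other fibrillarin measured, took another course. It was at 169.9, 175 and 173 TPM in wild type at 16 °C, 190.1, 189.8 and 189 TPM at 22 °C and 228, 247 and 221 TPM at 29 °C. The first step was 0.13 ± 0.0695 (adjusted p = 0.137) and the second 0.29 (adjusted p = 0.00242, and 0.14 with adjusted p = 0.117 under median-of-ratios scaling). In S364P it went from 180.4, 167 and 174 to 236, 253 and 231 TPM, a rise of 0.46 (adjusted p = 8.18e-06), and in the insertion line from 184, 154 and 202 to 251, 267 and 233 TPM, a rise of 0.48 (adjusted p = 6.24e-06). At 16 °C FIB1 lay above FIB2 in each library of S364P and of the insertion line, and below it in each wild-type library. At 22 and 29 °C FIB1 lay above FIB2 in every library.

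SNU13, the protein that binds the kink-turn of box C/D RNAs, was at 208, 209 and 202 TPM in wild type at 16 °C, 126, 122 and 114 TPM at 22 °C and 98.2, 99.1 and 93.7 TPM at 29 °C. It fell at both steps, by 0.77 ± 0.0859 (adjusted p = 4.08e-07) and 0.31 (adjusted p = 0.00608). In S364P it fell by 1.09 (adjusted p = 6.11e-10) and in the insertion line by 1.12 (adjusted p = 6.79e-10) at 22 °C, again with no overlap between the temperatures. SNU13 has near-identical copies in AT4G12600 and AT4G22380, and reads may be split among them in a way the deposited values do not show. NOP56, the core scaffold protein of the same particles, fell by 0.65 ± 0.131 (adjusted p = 0.000458), 0.94 (adjusted p = 2.83e-06) and 0.63 (adjusted p = 0.00038) at 22 against 16 °C, from 179.5, 181 and 180.3 TPM to 115, 121 and 108 TPM in wild type.

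In box H/ACA particles, NAP57, the pseudouridine synthase, fell by 0.49, 0.78 and 0.42 in wild type, S364P and the insertion line (adjusted p = 0.00132, 3.84e-06 and 0.00323). GAR1, a small subunit of the same particle, fell in wild type alone by the threshold, by 0.49 ± 0.0762 (adjusted p = 3.04e-05), from 216, 205 and 202 to 144, 154 and 146 TPM. In S364P its difference was −0.02 (adjusted p = 0.867) and in the insertion line 0.03 (adjusted p = 0.796). The interaction terms, 0.47 (adjusted p = 0.00516) and 0.51 (adjusted p = 0.00349), give the test of that contrast between genotypes. Nucleolin NUC-L1, a chaperone of rDNA transcription and early processing, fell by 0.63, 0.43 and 0.39 (adjusted p = 6.07e-05, 0.00148 and 0.00355).

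Small-subunit processome members fell by differing amounts. YAO, a WD-repeat protein bound to U3 RNA, fell by 0.49, 0.98 and 0.69. MPP10, a U3 partner, fell by 0.37, 0.42 and 0.39, the last not called without replicate 3 of the insertion line at 22 °C (adjusted p = 0.0604). ENP1, a late export factor, fell by 0.43, 0.59 and 0.54, and the helicase RH10 by 0.30, 0.40 and 0.21. SWA1, a processome WD-repeat protein known from female gametophyte development, fell by 0.28, 0.48 and 0.26. IMP4, which binds MPP10, was not called in any genotype, with differences of 0.06, 0.09 and 0.19. On the large-subunit side, BRX1-1 fell by 0.57, 1.02 and 0.99 and its paralog BRX1-2 by 0.70, 0.70 and 0.57; both are assembly factors that act early. PES, the Pescadillo protein, was called in wild type only, at −0.26 (adjusted p = 0.0109).

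A minority went the other way. DIM1A, the methyltransferase that dimethylates adenosines of the small-subunit rRNA, was at 41.4, 39.1 and 41.7 TPM in wild type at 16 °C, 77.3, 76.4 and 81.4 TPM at 22 °C and 104, 111 and 113 TPM at 29 °C. It rose by 0.93 ± 0.0586 (adjusted p = 9.61e-11) and then by 0.47 (adjusted p = 1.48e-06), with no overlap between temperatures. In S364P it rose by 1.15 (adjusted p = 6.75e-13), to 89.3, 104 and 93.2 TPM, and then fell by 0.18 (adjusted p = 0.0111; 0.097 without replicate 2 at 22 °C). In the insertion line it rose by 0.94 (adjusted p = 2.76e-11), to 102, 104 and 92.1 TPM, and then fell by 0.33 (adjusted p = 0.00011). AT1G63980, a G-patch protein annotated as PINX1, rose by 0.82, 1.05 and 0.82 at 22 °C, and DRH1, a DEAD-box RNA helicase, by 0.75, 0.97 and 0.76. MTR4, the nucleolar helicase that feeds the exosome, rose by 0.45 in S364P and 0.42 in the insertion line, and its wild-type difference of 0.16 missed the threshold (adjusted p = 0.067). In all, 12 members were higher at 22 than at 16 °C in all 3 genotypes, which is 57.1% of the wild-type, 29.3% of the S364P and 34.3% of the insertion-line list.

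**Figure D2:**
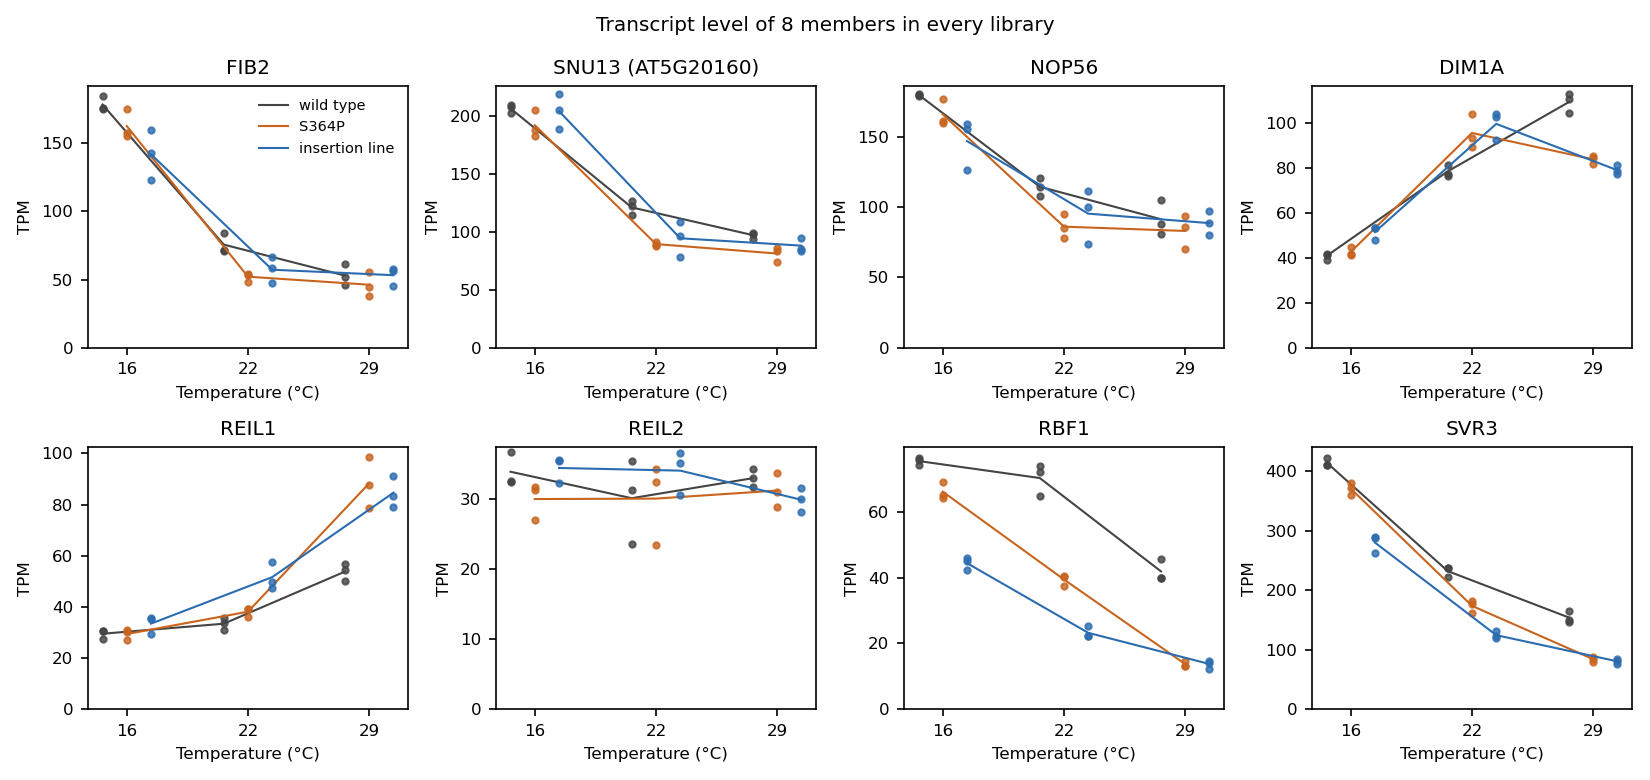
TPM of 8 members in every library (points) against temperature in °C, with lines joining the group means of wild type, S364P and the insertion line; every axis starts at 0. FIB2, SNU13 and NOP56 drop between 16 and 22 °C, DIM1A rises over the same step, REIL1 rises to 78.6 to 98.7 TPM in S364P at 29 °C while REIL2 stays between 23.4 and 36.7 TPM, and RBF1 and SVR3 are lower in both mutant lines.

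The plot of levels by temperature shows single members; summed, the members made up 15990 TPM in wild type at 16 °C, 13550 TPM at 22 °C and 12720 TPM at 29 °C, 15370, 13130 and 11640 TPM in S364P and 15320, 13340 and 11730 TPM in the insertion line. Genes of the protein synthesis pathway were also counted from fixed lists, of which NRPA1 and NRPA2 of RNA polymerase I are members too. Of 47 cytoplasmic translation genes, mostly ribosomal proteins, 24 fell and 5 rose at 22 against 16 °C in wild type, 26 and 12 in S364P and 21 and 10 in the insertion line. Of 6 RNA polymerase I genes, 1 fell and 1 rose in wild type and 2 fell and 1 rose in each mutant line. TOR signalling is the nutrient-sensing kinase pathway that promotes ribosome production. Of 9 genes listed under it, 1 fell and 3 rose in wild type, 2 and 3 in S364P and 1 and 4 in the insertion line. In wild type S6K1 fell, and LST8-1, ANAC082 and MRF1 rose. The list is broad and holds KIN10 and ANAC082 too, and its counts do not measure the activity of the pathway. Of 8 translation initiation genes, 2 fell and 1 rose in wild type, 3 and 2 in S364P and 2 and 3 in the insertion line.

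Markers of dividing cells, which use much of this machinery, were 0 lower and 2 higher of 16 at 22 against 16 °C in wild type, where their summed level was 335.0 to 351.2 TPM at 16 °C and 345.2 to 376.4 TPM at 22 °C. In S364P 6 of these markers fell and in the insertion line 2, and 0 rose in either. Root markers fell in 4, 10 and 9 of 15 cases and rose in 2, 1 and 2. Their mean sum in wild type was 321.3 TPM at 16 °C and 353.0 TPM at 22 °C; the sum in wild type at 22 °C ran from 209.7 to 515.3 TPM between libraries and in S364P from 99.62 to 149.3 TPM. Green leaf markers fell in 6, 7 and 7 of 9 cases and rose in 0, 1 and 0. The part of these markers in the results was not tested.

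**Figure D3:**
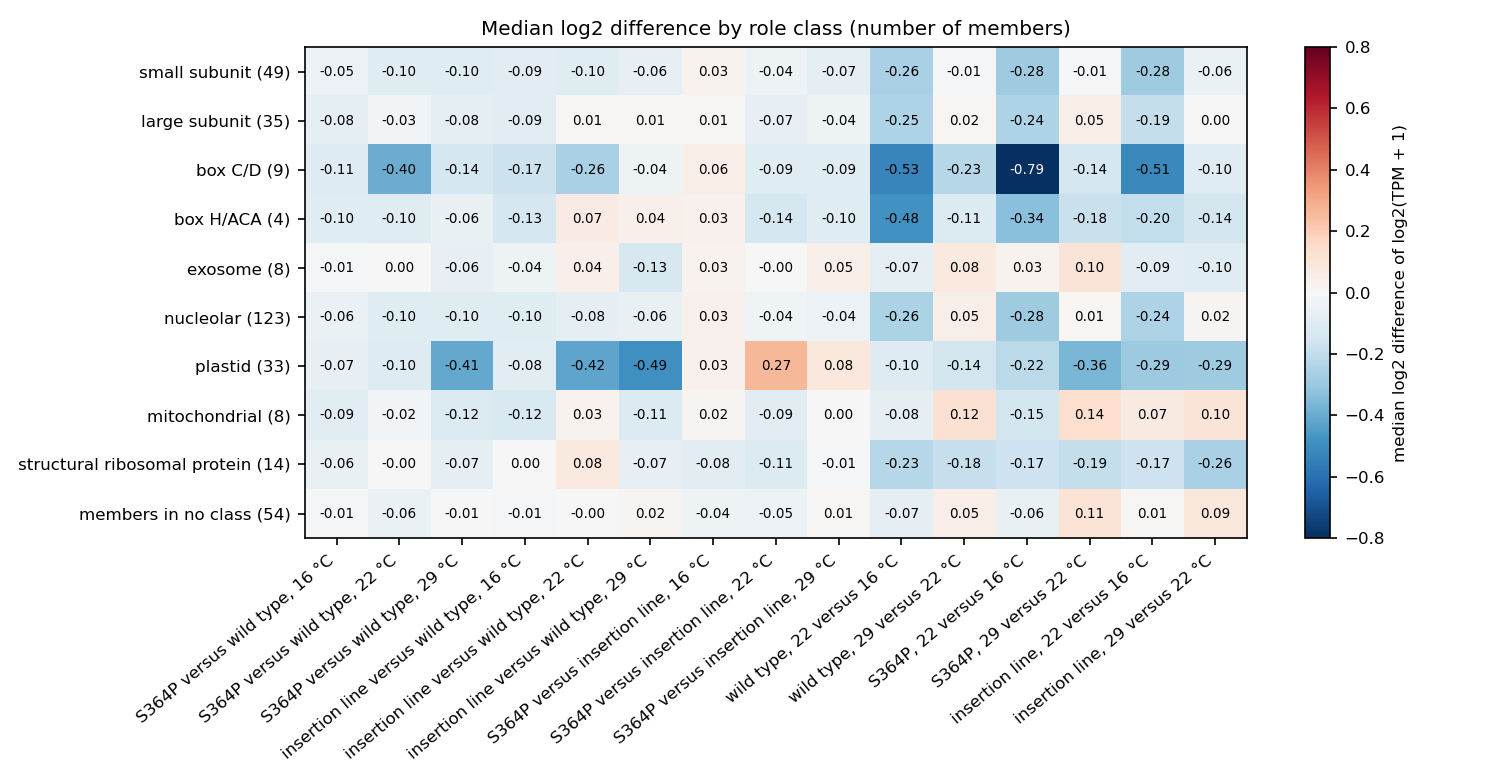
Median log2 difference of log2(TPM + 1) for each role class (rows, with the number of members) in each comparison of 2 groups (columns); blue is lower and red is higher. The deepest blue cells are box C/D at 22 against 16 °C, at −0.53, −0.79 and −0.51, and the plastid row is blue for both mutant lines against wild type at 29 °C, at −0.41 and −0.49.

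From 22 to 29 °C the split of the members between rises and falls depended on the scale. In wild type 41 members rose and 30 fell (against 28.8% and 9.05% of all genes), in S364P 41 and 48 (against 43.3% and 10.4%) and in the insertion line 37 and 50 (against 37.9% and 9.61%). Median-of-ratios scaling turned the splits to 15 up and 66 down (against 16.7% and 17.1% of all genes), 10 and 108 (against 22.4% and 19.8%), and 11 and 112 (against 17% and 19.3%). The member medians were then −0.10, −0.21 and −0.20 in place of 0.03, 0.015 and −0.005. Among nucleolar members the TPM counts were 24 up and 12 down, 19 and 15, and 20 and 14, and the scaled counts 7 and 31, 2 and 60, and 4 and 57. In each genotype a smaller share of members rose than of all genes, and a larger share fell. This held in TPM, under median-of-ratios scaling and under quantile normalization.

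Plastid members fell in all genotypes at this step. Of 33 plastid members, 14 fell in wild type, 22 in S364P and 21 in the insertion line, and 3, 1 and 2 rose. Of the 18 members lower in all 3 genotypes, 12 are plastid (19 of 46 under median-of-ratios scaling and 18 of 37 under quantile normalization), and they include RBF1, SVR1, SVR3, CSP41A, CRB and RIF10. The 18 are 60.0%, 37.5% and 36.0% of the 3 lists. Structural ribosomal proteins fell in 6, 8 and 10 of 14 cases and cytoplasmic translation genes in 21, 23 and 35 of 47. All 9 green leaf markers fell in S364P and in the insertion line and 8 fell in wild type, and their part in the plastid result was not tested.

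Among the 13 members higher at 29 than at 22 °C in all genotypes was REIL1, and under median-of-ratios scaling 3 members were. REIL1 encodes a cytosolic protein of late large-subunit maturation, known with REIL2 for a role in growth of Arabidopsis in the cold. REIL1 was at 27.5, 30.5 and 30.4 TPM in wild type at 16 °C, 35.6, 31.1 and 33.5 TPM at 22 °C and 56.8, 50.1 and 54.5 TPM at 29 °C. In S364P it was at 27.1, 30.8 and 30.1, then 39.3, 35.9 and 39.1, then 78.6, 87.7 and 98.7 TPM. In the insertion line it was at 35.4, 29.4 and 35.4, then 49.6, 47.5 and 57.6, then 79.2, 91.3 and 83.4 TPM. Between 22 and 29 °C it rose by 0.67 ± 0.0909 (adjusted p = 4.78e-06), 1.19 (adjusted p = 5.85e-10) and 0.71 (adjusted p = 2.74e-06), with no overlap in any genotype, and under median-of-ratios scaling the differences were 0.53, 0.95 and 0.48, all still called. REIL2 was not called in any comparison of 2 groups; its 27 libraries ran from 23.4 to 36.7 TPM, with the groups overlapping.

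DIM1B, the mitochondrial relative of DIM1A, rose by 0.57, 0.64 and 0.48 between 22 and 29 °C (adjusted p = 4.1e-06, 3.58e-07 and 2.7e-05). RRP4, an exosome cap subunit, rose by 0.38, 0.34 and 0.33, but with median-of-ratios scaling the S364P and insertion-line differences were 0.11 and 0.12 (adjusted p = 0.317 and 0.316). AT1G63980 fell at 29 °C in S364P, by 0.55 (adjusted p = 1.35e-05), and in the insertion line, by 0.61 (adjusted p = 7.61e-06), after its rise at 22 °C. In wild type it was 0.25 higher (adjusted p = 0.0224), which scaling reduced to 0.11 (adjusted p = 0.342). NUC-L2, the second nucleolin, rose by 0.92 in S364P (adjusted p = 0.000608) and 0.70 in the insertion line (adjusted p = 0.00679), from group means of 0.917 and 1.68 TPM. Its wild-type difference was 0.31 (adjusted p = 0.252), and the interactions were 0.61 (adjusted p = 0.154) and 0.40 (adjusted p = 0.36).

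**Figure D4:**
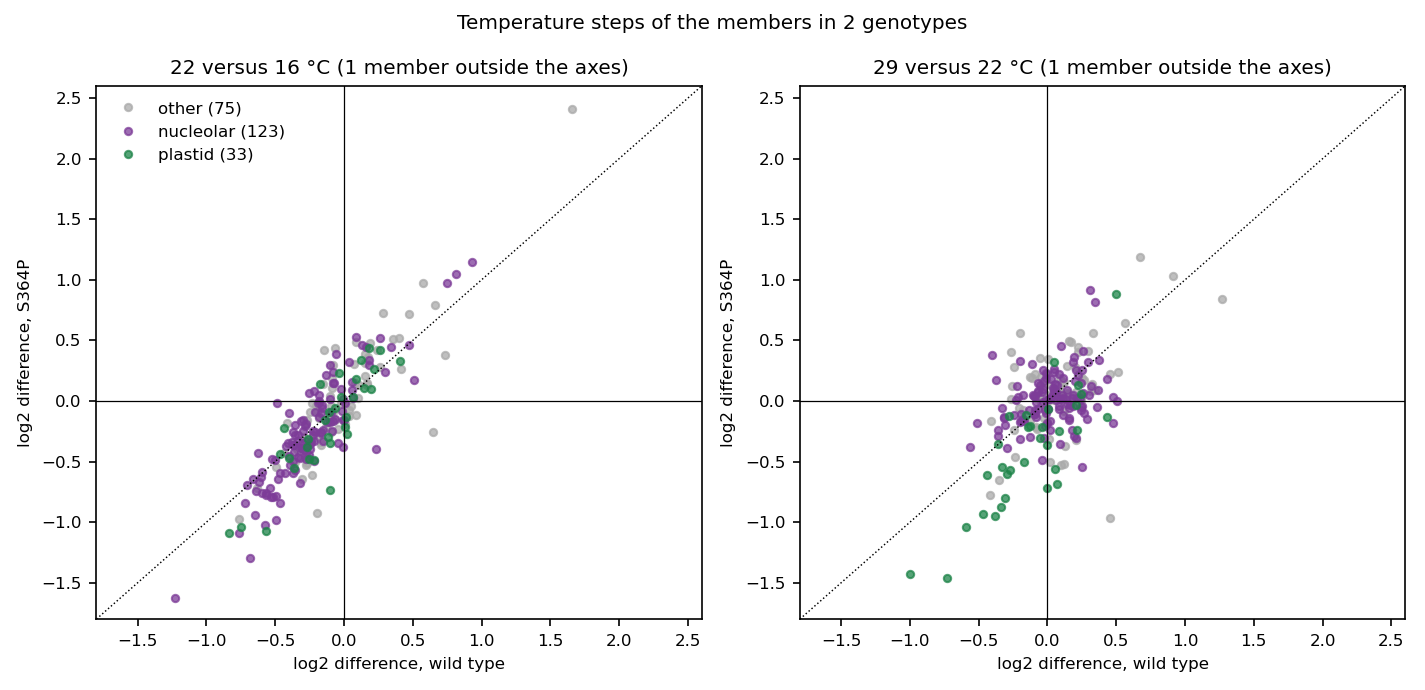
Log2 difference of each member between temperatures in S364P (vertical axis) against wild type (horizontal axis), for 22 against 16 °C (left) and 29 against 22 °C (right), with nucleolar members in purple, plastid members in green and the others in grey; 1 member lies outside each panel. On the left the purple cloud lies mostly below 0 on both axes, with FIB2 lowest at −1.23 and −1.62; on the right it is centred near 0 while plastid members extend down to −1.46 in S364P.

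At 16 °C no member was called between S364P and wild type: 0 were called higher and 0 lower (against 0.71% and 0.738% of all genes, 1.45% in either direction), 7 had an unadjusted limma p under 0.05, and under median-of-ratios scaling, quantile normalization and the replicate block 3, 5 and 9 did. The member median was −0.05. The insertion line at 16 °C had 11 members higher and 21 lower (against 15.5% and 10.7%). The lower share, 9.09%, lies below that of all genes in TPM but above it under median-of-ratios scaling, with 49 members (21.2%, against 13.9%), and under quantile normalization, with 41 (17.7%, against 14.0%). In TPM, without replicate 2 or replicate 3 of wild type, or the column numbered 2 of the insertion line, the lower count was 11. Of the 21 lower members 12 were plastid, and leaving out 1 library gave 6 to 10 of these.

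At 22 °C 27 members were higher and 44 lower in S364P (against 17.3% and 19.9% of all genes), and 41 and 51 in the insertion line (against 24.6% and 18.4%, and 42.9% in either direction). In TPM those shares lie near or below the background in both directions, except for the lower members of the insertion line at 22.1%. That lower share was 30.7% under median-of-ratios scaling (against 21.8% of all genes) and 29.9% under quantile normalization (against 21.1%). In TPM the lower count was 33 without replicate 3 of the insertion line at 22 °C and 71 without replicate 2. The same comparisons hold 12 and 14 lower markers of dividing cells among 16, with sums of 262.8 to 285.4 TPM in S364P and 259.2 to 291.6 TPM in the insertion line against 345.2 to 376.4 TPM in wild type, and 9 and 4 lower root markers among 15. Their part in the result was not tested.

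At 29 °C 17 members were higher and 48 lower in S364P (against 24.5% and 13.7%), and 17 and 46 in the insertion line (against 24.8% and 13.5%). The member medians were −0.09 and −0.08, where the medians of all genes were 0.07 and 0.09. With median-of-ratios scaling the counts were 12 and 78 in S364P (against 18.5% and 17.5% of all genes). In the insertion line they were 10 and 82 (against 16% and 18%). The lower count in S364P was 31 without replicate 2 of wild type. Of the 16 markers of dividing cells 6 were lower in S364P and 2 in the insertion line, and 0 were higher. Their summed level was 312.6 to 386.8 TPM in wild type, 276.0 to 317.7 TPM in S364P and 294.4 to 338.5 TPM in the insertion line. Of the 15 root markers 4 were lower and 0 higher in S364P, and 2 and 1 in the insertion line. Their part in the result was not tested.

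In TPM plastid members carried much of this difference. In S364P they were lower in 0 of 33 cases at 16 °C, 10 at 22 °C and 23 at 29 °C, with a median of −0.41 at 29 °C. In the insertion line they were lower in 12, 18 and 25 cases, with medians of −0.42 at 22 °C and −0.49 at 29 °C. Leaving out 1 library gave 19 to 24 of 33 in S364P and 22 to 26 in the insertion line at 29 °C. Median-of-ratios scaling gave 24 and 27. Under that scaling 33.8% and 35.5% of the members were lower, with 42 and 37 nucleolar members among them. The plastid members higher at 29 °C were AT3G02560 in S364P, and AT3G02560 with the kinase gene CPK29 in the insertion line, named after their values were seen. The class rests on a plastid annotation alone, so it can hold genes that are not plastid ribosome factors. PFC1, the plastid relative of the DIM1 methyltransferases, was not called in either line at 29 °C (−0.04 and −0.12).

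RBF1, annotated as a ribosome-binding factor A family protein, a bacterial-type assembly factor of the small subunit, was low in both mutant lines. RBF1 was at 74.4, 75.7 and 76.4 TPM in wild type at 16 °C, 64.8, 72.0 and 74.0 TPM at 22 °C and 40.01, 45.75 and 39.97 TPM at 29 °C. In S364P it was at 65.2, 69.1 and 64.2, then 37.5, 40.6 and 40.2, then 13.2, 13.2 and 14.7 TPM. In the insertion line it was at 45.1, 42.2 and 45.9, then 22.2, 25.2 and 22.1, then 14.1, 14.8 and 12.3 TPM. S364P thus lay between the other two genotypes at 22 °C, with no overlap, and with the insertion line at 29 °C.

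Against wild type, RBF1 in S364P differed by −0.19 ± 0.0709 at 16 °C (adjusted p = 0.317) and fell by 0.82 at 22 °C (adjusted p = 8.56e-09) and by 1.55 at 29 °C (adjusted p = 1.43e-13). In the insertion line it was lower by −0.75 (adjusted p = 2.87e-08), −1.56 (adjusted p = 8.42e-14) and −1.54 (adjusted p = 1.52e-13). The difference between S364P and wild type changed from 16 to 22 °C by −0.63 (interaction adjusted p = 0.000161) and from 22 to 29 °C by −0.73 (adjusted p = 2.84e-05). For the insertion line the terms were −0.81 (adjusted p = 1.68e-05) and 0.01 (adjusted p = 0.944).

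SVR3, a plastid GTPase of the TypA family, was at 149, 166 and 146 TPM in wild type at 29 °C, 79.3, 87.9 and 84.3 TPM in S364P and 76.4, 84.1 and 80.0 TPM in the insertion line. It was lower by −0.87 (adjusted p = 8.39e-11) and −0.93 (adjusted p = 2.45e-11). CRB, a plastid RNA-binding protein also known as CSP41b, was at 309.8, 331 and 333 TPM in wild type, 167, 175 and 171 TPM in S364P and 162, 168 and 167 TPM in the insertion line, lower by −0.92 (adjusted p = 6.3e-14) and −0.97 (adjusted p = 3.11e-14). In both genes the 2 mutant lines overlapped each other and neither overlapped wild type. CSP41A, the partner of CRB, was lower by −0.64 and −0.77 (adjusted p = 2.01e-10 and 1.01e-11).

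The gene listed as emb1138, which encodes the plastid RNA helicase RH3, was lower in both mutant lines at 29 °C. It was there at 317, 354 and 313 TPM in wild type, 174, 182 and 177.7 TPM in S364P and 159.6, 167 and 157 TPM in the insertion line, lower by −0.88 ± 0.0844 (adjusted p = 2.87e-08) and −1.02 (adjusted p = 2.53e-09). At 22 °C its S364P difference was −0.12 (adjusted p = 0.293), and the interaction from 22 to 29 °C was −0.76 (adjusted p = 0.000124). It was already lower in the insertion line at 16 °C, by −0.31 (adjusted p = 0.00784), and at 22 °C, by −0.44 (adjusted p = 0.000187), and the interaction from 22 to 29 °C was −0.57 (adjusted p = 0.00196). AT5G46580, a plastid pentatricopeptide repeat protein, was lower by −1.02 and −0.97 (adjusted p = 2.52e-08 and 4.45e-08), RFC3, a plastid ribosomal protein relative, by −0.90 and −1.02 (adjusted p = 1.46e-05 and 2.55e-06), and RNJ, the plastid ribonuclease J, by −0.49 and −0.54 (adjusted p = 0.00177 and 0.000683).

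Green leaf markers were lower beside these plastid members at the highest temperature. At 29 °C 8 of 9 were lower and 1 higher in each mutant line, with medians of −0.83 in S364P and −0.97 in the insertion line, and their summed level was 31900 to 33280 TPM in wild type, 19230 to 21730 TPM in S364P and 19260 to 21540 TPM in the insertion line. At 16 °C 0 of these markers were lower in S364P and 6 in the insertion line, beside 0 and 12 lower plastid members. LHCA1 was higher in both lines and LHCB2.1 in S364P. The leaf sums of the insertion line, 50520 to 51860 TPM, overlapped wild type, 50090 to 52160 TPM. The plastid sums did not, at 3925 to 4283 against 4621 to 4654 TPM. At 22 °C the leaf sums were 39820 to 43510 TPM in S364P and 36150 to 40550 in the insertion line. Wild type there had 40780 to 45390 TPM. The part of these markers in the result was not tested.

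Of the 123 nucleolar members 15 were higher and 25 lower in S364P at 22 °C (12.2% and 20.3%, against 17.3% and 19.9% of all genes), and 4 and 17 at 29 °C (3.25% and 13.8%, against 24.5% and 13.7%). The insertion-line counts were 4 and 5 at 16 °C (3.25% and 4.07%, against 15.5% and 10.7%), 22 and 25 at 22 °C (17.9% and 20.3%, against 24.6% and 18.4%) and 7 and 11 at 29 °C (5.69% and 8.94%, against 24.8% and 13.5%). In TPM each of these shares lies near or below that of all genes. These numbers rest on single libraries: without 1 library the lower count ran from 6 (replicate 3 of S364P left out) to 34 (replicate 1 left out) for S364P at 29 °C, and from 9 (replicate 3 of the insertion line left out) to 40 (replicate 2 left out) for the insertion line at 22 °C. They also rest on the scale. Under median-of-ratios scaling 42 of the 123 were lower in S364P and 37 in the insertion line at 29 °C (against 17.5% and 18% of all genes). With the same scaling 30 were lower in the insertion line at 16 °C (against 13.9%) and 41 at 22 °C (against 21.8%). These scaled shares lie above those of all genes. In S364P at 22 °C the scaled lower count was 26 (against 20.2%), near the share of all genes.

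In box C/D particles at 22 °C, 6 of 9 members were lower and 2 higher in S364P, with a median of −0.40, and 3 and 2 in the insertion line. FIB2 was lower by −0.53 in S364P (adjusted p = 0.00418). In the insertion line it was lower by −0.41 (adjusted p = 0.019), a call lost without replicate 3 of that group (adjusted p = 0.126) or replicate 2 of wild type (adjusted p = 0.0917). FIB1 was higher by 0.34 (adjusted p = 0.000672) and 0.40 (adjusted p = 7.53e-05). SNU13 (AT5G20160) was lower by −0.43 and −0.37 (adjusted p = 0.000453 and 0.00142), values that hold for this gene copy alone. Its S364P interaction term from the lowest temperature to 22 °C was −0.33 (adjusted p = 0.0782). Among its near-identical copies the same term was −0.37 for AT4G22380 (adjusted p = 0.105) and 0.39 for AT4G12600 (adjusted p = 0.0104). The copies thus differed in sign. NOP56 in S364P, at −0.41 (adjusted p = 0.0174), lost its call without replicate 1 of S364P (adjusted p = 0.0766) or replicate 2 of wild type (adjusted p = 0.0625).

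Other nucleolar factors at 22 °C went both ways. BRX1-1 was at 14.6, 14.3 and 13.8 TPM in wild type, 9.83, 9.62 and 8.73 TPM in S364P and 9.22, 9.60 and 9.75 TPM in the insertion line, lower by −0.55 (adjusted p = 0.00017) and −0.53 (adjusted p = 0.000155). YAO was lower by −0.52 and −0.49 (adjusted p = 0.00228 and 0.00252). GAR1 was higher by 0.33 and 0.44 (adjusted p = 0.00195 and 6.03e-05), and TOZ, a processome WD-repeat protein, by 0.29 and 0.34 (adjusted p = 0.0115 and 0.0033), the S364P call just at the limit without replicate 2 of S364P (adjusted p = 0.05). NUC-L1 was higher by 0.43 in the insertion line (adjusted p = 0.00178), and its S364P difference was 0.24 (adjusted p = 0.0779).

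At 29 °C IMP4 ranged from 24 to 26 TPM in wild type, 18.7, 18.5 and 17.1 TPM in S364P and 15.5, 15.1 and 11.1 TPM in the insertion line. It was lower by −0.44 (adjusted p = 0.0142) and −0.81 (adjusted p = 5.31e-05), and wild type overlapped neither line. REIL1 was higher by 0.70 in S364P (adjusted p = 2.2e-06) and 0.64 in the insertion line (adjusted p = 6.36e-06). DIM1A had opposite differences at 2 temperatures: it was higher by 0.28 and 0.34 at 22 °C (adjusted p = 0.000787 and 6.36e-05) and lower by −0.38 and −0.46 at 29 °C (adjusted p = 2.14e-05 and 1.39e-06). The interaction terms for that change were −0.66 (adjusted p = 9.91e-06) and −0.80 (adjusted p = 1.44e-06). DIM1B was higher in both lines at 22 °C, by 0.46 and 0.57, and at 29 °C, by 0.54 and 0.49.

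The transcript of eIF6A, which keeps new large subunits from joining small ones, varied between libraries. At 22 °C it was at 143, 103 and 113 TPM in wild type, 69.1, 78.8 and 74.0 TPM in S364P and 103, 111 and 79.9 TPM in the insertion line. The S364P difference was −0.68 ± 0.136 (adjusted p = 0.000513) with no overlap, and the insertion-line difference −0.29 (adjusted p = 0.095) with overlap.

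The 2 mutant lines were also compared with each other. At 16 °C 9 members were higher and 13 lower in S364P than in the insertion line (against 7.0% and 12.2% of all genes), shares below the background. The split turned with the scale, to 16 higher and 5 lower under median-of-ratios scaling (against 9.69% and 8.64% of all genes). Under quantile normalization it was 19 and 8 (against 9.85% and 9.58%). At 22 °C 19 were higher and 7 lower (against 6.18% and 9.45%), and 16 of the 19 were plastid, with a plastid median of 0.27 and 11 to 19 plastid members higher when 1 library was left out. The lower count at 22 °C was 21 without replicate 3 of the insertion line. The comparison at 29 °C called 0 members higher and 0 lower (against 0.659% and 0.341%); 17 had an unadjusted limma p under 0.05, and 5 were called without replicate 1 of S364P and 1 without replicate 1 of the insertion line. RBF1 was 0.56 higher in S364P at 16 °C (adjusted p = 3.12e-06) and 0.74 higher at 22 °C (adjusted p = 1.43e-07), and differed by −0.00 ± 0.0709 at 29 °C. Green leaf markers were higher in 7, 5 and 0 of 9 cases at the 3 temperatures, and their part was not tested. REIL1 was lower in S364P at 22 °C by −0.42 (adjusted p = 0.00257).

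Interaction terms tested whether a genotype difference changed between temperatures. From 16 to 22 °C 14 members had a positive and 6 a negative term for S364P (against 7.81% and 6.27% of all genes), and 15 and 10 for the insertion line (against 5.47% and 4.35%). From 22 to 29 °C the counts were 7 and 29 (against 10.5% and 6.94%), and 5 and 35 (against 8.72% and 9.13%). The negative share at the upper step, 29 and 35 of 231, was thus above that of all genes in both lines. With median-of-ratios scaling these counts were 47 and 50 (against 8.71% and 11.3% of all genes).

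Some members carry the annotation without a known part in ribosome assembly. UGE1 encodes a UDP-glucose epimerase of cell-wall sugar metabolism. It was at 12.5, 10.8 and 12.3 TPM in wild type at 16 °C, 41.4, 36.5 and 40.9 TPM at 22 °C and 112, 75.2 and 108 TPM at 29 °C. It rose by 1.66 ± 0.154 and 1.27 in wild type, 2.41 and 0.84 in S364P and 1.61 and 0.57 in the insertion line, the last lost under scaling (0.35, adjusted p = 0.111). At 16 °C it was at 33.9, 29.1 and 31.5 TPM in the insertion line, 1.34 higher than in wild type (adjusted p = 5.98e-07), with no overlap, and at 13.9, 14.0 and 13.6 TPM in S364P (0.21, adjusted p = 0.845). UGE1 and members such as the invertase ATBETAFRUCT4, the galactolipid enzyme SFR2 and the kinase CPK29 count in the totals above by the rule.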

How the data were processed

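The authors deposited 1 table of TPM values (named so per the file headers; TPM is a transcript abundance per length, scaled to a fixed total) for 33039 genes in 27 libraries, beside a length and Gene Ontology terms. The aligner, quantification tool and build were not given in the sources used here. For 32373 of 32547 matched loci (99.5%) the deposited length equals a transcript length in TAIR10.1; promoter sequences were therefore taken from RefSeq's TAIR10.1 files. For the insertion line at 16 °C, 2 columns are tied to the group alone, so the replicate numbers of its columns name no sample.

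The fit took log2(TPM + 1) of the 21396 genes that reached 1 TPM in 3 or more libraries. They were fitted with limma 3.58.1 (R 4.3.3), with a mean for each of 9 groups, variances moderated along a trend (18 residual and 3.17 prior degrees of freedom), two-sided tests and Benjamini-Hochberg adjustment over all tested genes; every adjusted p is from this fit. All 9 groups share 1 estimate of the spread. Comparisons that share libraries (both mutant lines against the same wild type, or both temperature steps of a genotype) are given side by side only. Genes were named by rule: core factors of the pathway, plus, for each comparison of 2 groups, at most 4 called members in each direction with the largest difference, a mean level of 5 TPM or more and libraries that do not overlap. The members, lists, role classes and named genes were chosen with earlier results of these data known. Markers of dividing cells, roots and green leaves were counted beside the members. Alternatives were median-of-ratios scaling, quantile normalization, pseudocounts of 0.1 and 5, no filter, a block for replicate number, and each library left out in turn. Counts by role class and of members shared over genotypes were repeated under both scalings, and class counts without each library, as alternatives added after seeing the data. Promoter windows of 250 bases were searched on both strands for 5 strings. Python 3.11.15, pandas 2.3.3, NumPy 2.4.6 and matplotlib 3.10.9 were used.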

Additional observations from a re-analysis of the deposited data

Results flagged for a closer look

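For each mutant line, an interaction term tested whether its difference from wild type changed between 2 temperatures; a positive term means that the difference was more positive at the warmer temperature. All terms are on the log2(TPM + 1) scale, from limma with adjustment over all genes.

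From 16 to 22 °C the S364P difference changed in 20 members. Terms above 0 called under every alternative were those of DIM1B (0.51), GAR1 (0.47) and AT1G06560 (0.44). Terms above 0 that lost the call under at least 1 alternative were those of UGE1 (0.76), AT3G62860 (0.40), FIB1 (0.33) and PES (0.32). Terms below 0 called under every alternative were those of RBF1 (−0.63) and CRB (−0.51). Terms below 0 that lost the call under at least 1 alternative were those of eIF6A (−0.63), BRX1-1 (−0.45) and SVR3 (−0.26).

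From 22 to 29 °C it changed in 36 members. A term above 0 called under every alternative was that of eIF6A (0.78). A term above 0 that lost the call under at least 1 alternative was that of REIL1 (0.52). Terms below 0 called under every alternative were those of AT1G63980 (−0.80), emb1138 (−0.76), RBF1 (−0.73), RNJ (−0.71), DIM1A (−0.66), AT5G46580 (−0.57), AT1G06560 (−0.51), CSP41A (−0.47), SVR3 (−0.45), DRH1 (−0.45), FIB1 (−0.44) and CRB (−0.43). A term below 0 that lost the call under at least 1 alternative was that of AT3G19810 (−0.45).

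For the insertion line the difference changed in 25 members from 16 to 22 °C. A term above 0 called under every alternative was that of GAR1 (0.51). Terms above 0 that lost the call under at least 1 alternative were those of TOZ (0.44), REIL1 (0.44), PES (0.40), DIM1B (0.37) and FIB1 (0.35). Terms below 0 called under every alternative were those of RBF1 (−0.81), CRB (−0.58) and AT5G46580 (−0.57). Terms below 0 that lost the call under at least 1 alternative were those of SVR3 (−0.33) and CSP41A (−0.32).

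From 22 to 29 °C the insertion-line difference changed in 40 members. A term above 0 called under every alternative was that of ATBETAFRUCT4 (0.89). Terms above 0 that lost the call under at least 1 alternative were those of RACK1B_AT (0.43) and SFR2 (0.34). Terms below 0 called under every alternative were those of AT1G63980 (−0.86), DIM1A (−0.80), IMP4 (−0.75), AT5G27990 (−0.58), emb1138 (−0.57), AT1G06560 (−0.47), FIB1 (−0.47), DRH1 (−0.42), CSP41A (−0.30) and CRB (−0.26). Terms below 0 that lost the call under at least 1 alternative were those of UGE1 (−0.70), RNJ (−0.47) and AT3G62860 (−0.37).

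In all, 33 of these 54 terms of named genes were called under every alternative. The 4 counts ran from 12 to 16, 25 to 41, 17 to 37 and 29 to 53 when 1 library was left out, in the order given. The plastid factors RBF1, CRB, SVR3, CSP41A and emb1138 have terms below 0 wherever they are listed, and FIB1, which encodes a fibrillarin, has terms above 0 at the lower step and below 0 at the upper one in both lines.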

How the results depend on the processing

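Counts of members called in either direction kept within 1.5 times the TPM count in 18 of 19 comparisons. This held under both scalings, both pseudocounts, no filter and the replicate block. The exception was the insertion line against wild type at 16 °C, with 32 members, 59 under median-of-ratios scaling and 53 under quantile normalization. Leaving out 1 library gave 20 to 39 there, 12 to 18 in S364P against the insertion line at 16 °C (22 with all libraries), 0 to 5 at 29 °C (0 with all libraries) and 12 to 16 for the S364P interaction from 16 to 22 °C (20 with all libraries). Scaling moved the split by direction more than these totals. From 22 to 29 °C in wild type, median-of-ratios scaling took the share of members higher from 17.7% to 6.49%. It took the share lower from 13% to 28.6%. In S364P the shares went from 17.7% to 4.33% and from 20.8% to 46.8%. By direction in TPM, S364P against wild type at 29 °C had 17 higher members. It had 11 without replicate 2 of S364P and 10 without replicate 3 of wild type. The insertion line at 29 °C had 17, and 8, 9 or 10 without replicate 3 of wild type or replicates 1 and 3 of the insertion line. The rises from 22 to 29 °C numbered 27 in S364P and 23 in the insertion line without replicate 1 at 29 °C, against 41 and 37.

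Of 1045 values of 55 named genes, 395 were called; of 13860 recomputed values 421 lost the call, 303 gained it and 12 reversed. All 12 concern 29 against 22 °C, and the cause was not tested. Under median-of-ratios scaling the S364P differences became −0.22 for NUC-L1, −0.19 for XRN3, −0.21 for DRH1, −0.037 for RRP41, −0.19 for PES and −0.0018 for RH10, and the insertion-line differences −0.16 for DRH1, −0.19 for RRP41 and −0.22 for PES. Under quantile normalization they became −0.19 for XRN3, −0.053 for RRP41 and −0.027 for RH10 in S364P.

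With the replicate number as a block, 115 members were called in wild type at 22 against 16 °C, 147 in S364P and 134 in the insertion line. Libraries with the same number did not deviate together (correlations of −0.272 to 0.263 in 108 pairs, median 0.00303, and −0.301 to 0.273 in 216 pairs of different numbers), and 9 of 27 libraries correlated best with their own number, so the numbers were not taken to pair the samples. Depth is unknown, 3 libraries a group limit the precision, TPM values are shares of a fixed total, and temperature and time of day cannot be told apart.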

Other observations

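By their annotation the members include HYL1 and DCL1, known for microRNA processing. The noncoding RNA AT3G09905 was at 103.47, 40.26 and 47.64 TPM in wild type at 16 °C, 0.0, 0.9 and 9.35 TPM at 22 °C and 0.0 TPM in all 3 libraries at 29 °C. In S364P at 22 °C it was at 24.57, 0.0 and 16.19 TPM, and the insertion line listed it at 0 in its 6 libraries at 22 and 29 °C, so no fold is given. Of 8 mitochondrial members, 3 fell and 1 rose between 16 and 22 °C in wild type, 2 and 3 in S364P and 2 and 2 in the insertion line.

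The 9 genes listed under TOR signalling, ANAC082 among them, are not members. Their transcripts summed in wild type to 342.0 ± 6.02 TPM at 16 °C (SD, n = 3, here and below). The sums were 400.4 ± 19.5 TPM at 22 °C and 464.3 ± 11.2 TPM at 29 °C. In S364P the sums were 333.3 ± 6.48, 421.8 ± 5.7 and 506.5 ± 8.35 TPM, and in the insertion line 301.3 ± 10.9, 415.4 ± 6.21 and 488.6 ± 8.42 TPM. One gene, MRF1, accounts for much of the range, with group means of 32.2, 81.8 and 143.0 TPM in wild type. These sums were not tested and do not measure the activity of the pathway.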
